A study of Homo sapiens with 9 samples.

Results

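RNA of MDA-MB-231 cells transfected with MILIP siRNA2 was compared with RNA of cells transfected with a control siRNA, over every gene with enough counts to be tested, which was 15345 of the 60612 genes listed. MDA-MB-231 is an established human triple-negative breast cancer line, which lacks the hormone receptors and ERBB2 amplification and has a basal, mesenchymal character. The study addressed the RNA changes that follow depletion of the long noncoding RNA MILIP by RNA interference. All 9 libraries came from this parental line, harvested 48 hours after lipid transfection: 3 with a negative control siRNA, 3 with MILIP siRNA1 and 3 with MILIP siRNA2. The treatment text speaks of siRNAs against PLANE, while the series title names MILIP and the libraries are labelled siRNA1 and siRNA2. Genes were kept by a minimum count that scales with library size, and the smallest total over the 9 libraries among tested genes was 47 counts, the largest among untested genes 111 counts. Whether replicate libraries were separate cultures is not stated in the labels, and every p-value therefore rests on library spread that may be technical.

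MILIP has been described as a MYC-induced RNA that restrains p53, and MDA-MB-231 carries mutant p53. Growing cancer cells spend much of their transcription on ribosomes, nucleotides and the machinery of DNA replication and mitosis, under control of MYC and E2F factors. NF-kappa-B factors drive cytokine and chemokine genes, which basal breast cancer lines already express at rest. SREBP factors, released from the endoplasmic reticulum when membrane sterol is low, drive the genes of cholesterol synthesis and uptake.

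Library totals ran from 15281220 to 19759371 counts, and the biological coefficient of variation shared by all genes was 0.0641. All 12 markers of basal lines on a list were expressed, and VIM stood at 4780 CPM (counts per 1e+06 counts, scaled by TMM factors) in the control libraries. With siRNA2, 5 of the 12 were higher and 6 lower than control. Their unscaled sum was 11400 to 11800 CPM in control libraries, against 285 to 318 CPM for 12 luminal and hormone receptor markers. Of the luminal markers, KRT19 was highest at 174 CPM. Of the leukocyte markers, PTPRC, CD3D, CD3E, CD4, MS4A1 and NKG7 had 0 counts in all 6 control and siRNA2 libraries, and the endothelial list had 5 and the fibroblast list 6 members with enough counts. The share of mitochondrial ribosomal RNA was 0.622% ± 0.0282 in control libraries and 0.893% ± 0.0265 with siRNA2 (SD, n = 3), and its part in the results was not tested. In bulk RNA, fewer cells of a kind and less RNA per cell cannot be told apart.

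MILIP (ENSG00000265688, GRCh38 chromosome 17, 81927829 to 81930753, plus strand) fell with siRNA2. Its counts were 133, 126 and 148 in the control libraries and 10, 19 and 6 with siRNA2. In CPM these were 8.21, 8.32 and 8.7 against 0.534, 0.965 and 0.349, a log2 fold change of -3.73 (SE 0.287, adjusted p = 5.34e-11) in the quasi-likelihood test of edgeR, adjusted by Benjamini-Hochberg over all tested genes, which gave every adjusted p here. The groups did not overlap, and the exact two-sided permutation test of 3 against 3 libraries gave p = 0.1, the smallest it allows. With siRNA1 the values were 1.2, 0.618 and 1.9 CPM, so that 1 siRNA1 library lay below 1 siRNA2 library, and the test called MILIP lower with siRNA2 than with siRNA1 (-0.99, SE 0.379, adjusted p = 0.0264). That call was lost without siRNA1 library 3 (-0.51, adjusted p = 0.308), siRNA2 library 1 (-0.89, adjusted p = 0.083) or siRNA2 library 3 (-0.73, adjusted p = 0.121), with the 2 groups fitted alone (adjusted p = 0.0527), and with limma on log2(FPKM + 1) or log2(FPKM + 0.1) (adjusted p = 0.0717 and 0.0604).

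Across all tested genes, siRNA2 was followed by 4170 higher genes (27.2%) and 4434 lower genes (28.9%) at an adjusted p below 0.05. A change of at least 2-fold was seen for 929 higher genes (6.05%) and 740 lower genes (4.82%). Whether a change differed from that with siRNA1 was tested directly between the siRNAs: 4359 genes (28.4%) were higher and 4910 (32.0%) lower with siRNA2 than with siRNA1. These shares are the background against which each gene list below is read, and the median log2 fold change over all tested genes was -0.011 against control and -0.033 against siRNA1. List members were chosen with earlier results of these data known. A list share that differs from the background is therefore a description and not a test. The plot of the lists shows where the members sat: lists of ribosome production, nucleotide synthesis, replication and mitosis lay to the left of 0, and lists of cytokines, sterol synthesis and endoplasmic reticulum chaperones to the right. Comparisons of siRNA1 and of siRNA2 with control use the same control libraries, so their values are set side by side only.

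**Figure D1:**
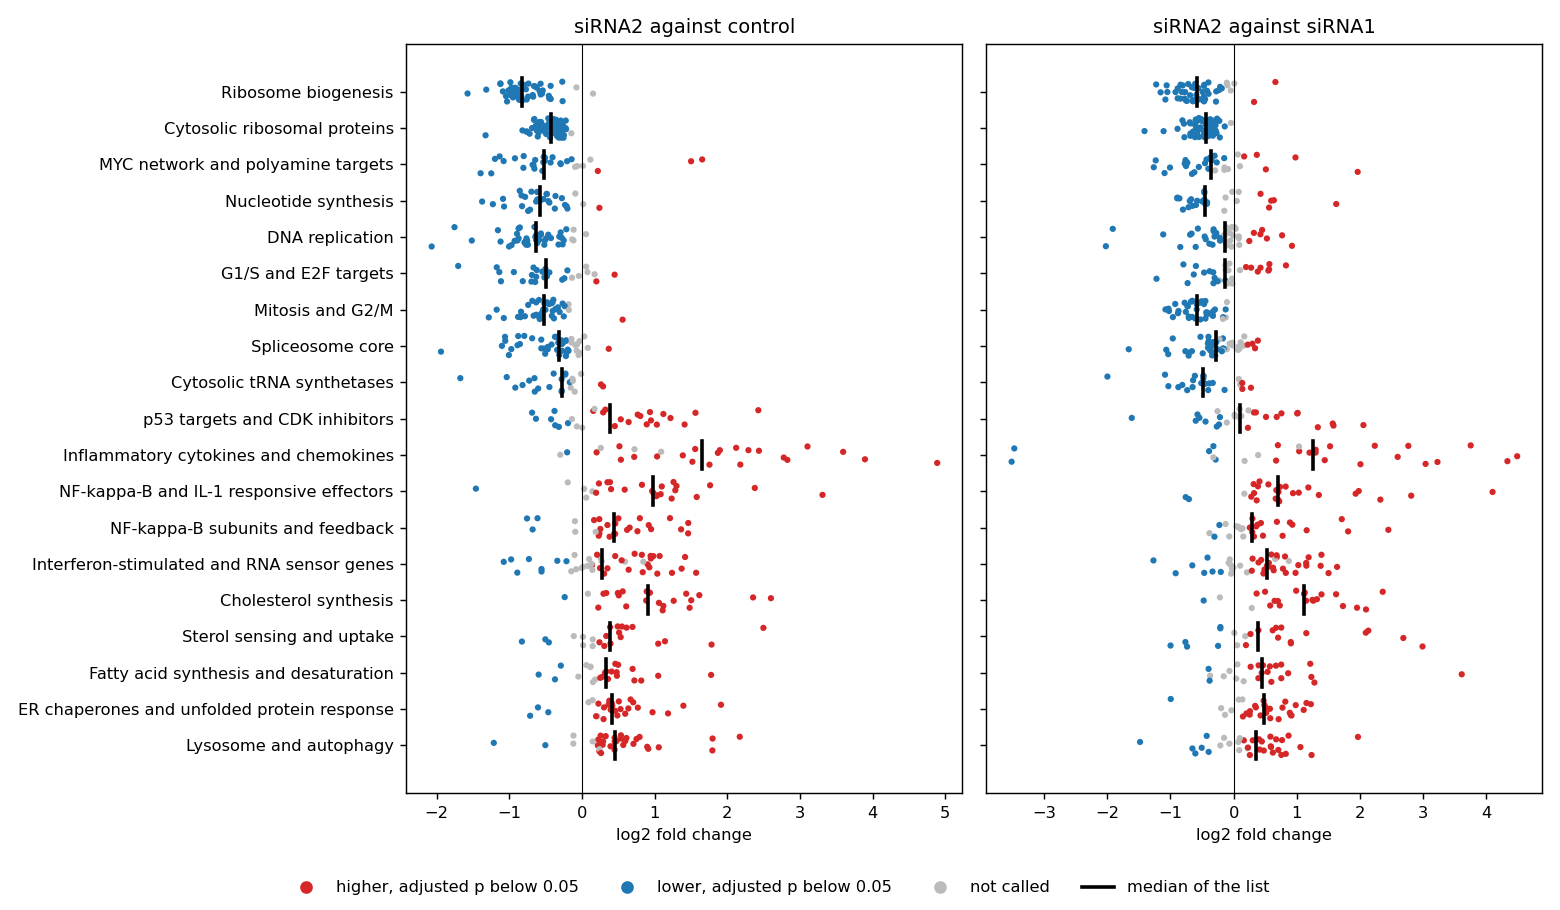
Log2 fold change of every tested member of 19 gene lists, siRNA2 against control on the left and siRNA2 against siRNA1 on the right; each point is a gene, red or blue where the adjusted p was below 0.05, and the black bar is the median of the list. The ribosome biogenesis median was -0.83 and the cytokine median 1.656 against control.

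Ribosome production was lower in nearly every gene listed for it. Of 50 tested genes of ribosome biogenesis, 48 were lower than in control libraries and 0 higher, with a median log2 fold change of -0.83, against 28.9% lower over all genes. Against siRNA1, 44 were lower and 2 higher, with a median of -0.583, and with siRNA1 the median against control was -0.173. The 2 genes not called against control were RRN3, a factor that recruits RNA polymerase I (-0.08), and the polymerase subunit POLR1C (0.15). The 2 genes higher than with siRNA1 were POLR1C and NOP14.

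DKC1, the pseudouridine synthase of the small nucleolar RNA particles that modify ribosomal RNA, had the largest fall of the list. It stood at 163, 170.4 and 165 CPM in control, 128, 134 and 129 with siRNA1 and 57.9, 58.7 and 50.4 with siRNA2. Libraries of siRNA2 lay below all 6 others, with a log2 fold change of -1.58 (SE 0.0658, adjusted p = 7.45e-16) against control and -1.23 (SE 0.0658, adjusted p = 4.12e-14) against siRNA1. TCOF1, the treacle protein of the nucleolus, was at 218, 234 and 235 CPM in control, 138, 135 and 138 with siRNA1 and 90, 96 and 89.5 with siRNA2. It was lower than control with both siRNAs (-1.32, SE 0.0588, adjusted p = 2.28e-15 and -0.74) and lower with siRNA2 than with siRNA1 (-0.58, adjusted p = 6.11e-09), and it overlaps CD74 on the opposite strand. NOP56, a core protein of the methylating box C/D particles, went from 312 ± 1.84 to 143 ± 1.66 CPM (mean ± SD, n = 3) and its enzyme FBL from 253 ± 24.3 to 139 ± 6.93 CPM. FBL with siRNA1 stayed at 237 ± 18.1 CPM, and the siRNA2 libraries were below the siRNA1 libraries (-0.77, adjusted p = 7.71e-10). NCL, the abundant nucleolar protein nucleolin, fell from 1178 ± 50.5 to 679 ± 17.2 CPM, but most of that fall was seen with siRNA1 too (779 ± 15.3 CPM), and the difference between the siRNAs was -0.20. POLR1A, the catalytic subunit of RNA polymerase I, fell from 165 to 87.4 CPM (-0.91).

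Genes of the ribosome's own proteins fell almost without exception. Of 73 cytosolic ribosomal protein genes, 72 were lower than control and 0 higher, with a median of -0.42, and 72 were lower than with siRNA1, with a median of -0.439. With siRNA1 their median against control was 0.045. The exception against control was RPL13 (-0.15, adjusted p = 0.0596), which was lower than with siRNA1, and the exception against siRNA1 was RPL23 (-0.04). As a share of all counts, these transcripts took 4.71% ± 0.332 in control, 4.81% ± 0.195 with siRNA1 and 3.43% ± 0.0195 with siRNA2 (SD, n = 3 each). The siRNA2 libraries, at 3.41% to 3.45%, all lay below the control libraries at 4.51% to 5.1%. Ribosomal protein genes have many processed pseudogenes, and reads shared with these copies could be split or dropped in counting. RPL18 had the largest fall, 439, 425 and 512 CPM in control against 192, 183 and 174 with siRNA2 (-1.33, SE 0.0675, adjusted p = 2.73e-14), and its 3 prime UTR holds the 7-base word GACCCTA, which MILIP also holds. RPS2, a protein of the small subunit and among the most abundant of these transcripts in CPM, went from 1999, 2106 and 2398 to 1316, 1259 and 1272 CPM (-0.76, SE 0.0664, adjusted p = 5.63e-10).

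Among cytosolic tRNA synthetases and their partners, which charge tRNAs for translation, 16 of 23 were lower and 2 higher than control, with a median of -0.28. Against siRNA1 18 were lower and 3 higher, with a median of -0.479. FARSB, a subunit of the enzyme that charges the phenylalanine tRNA, fell from 82, 74 and 79.2 to 37.3, 37.5 and 40 CPM (-1.04, SE 0.071, adjusted p = 6.32e-12) and was 83.5, 83.8 and 76.3 CPM with siRNA1. GARS1 (0.26) and CARS1 (0.29), which charge glycine and cysteine tRNAs, were the 2 that rose.

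Spliceosome genes were lower in 34 of 45 tested and higher in 1, with a median of -0.318, and 28 were lower and 4 higher than with siRNA1. SF3A3, a subunit of the U2 particle, had the largest fall, from 211, 207 and 215 to 55.6, 56.5 and 52.5 CPM (-1.94, SE 0.0593, adjusted p = 2.19e-18), with 174, 174 and 172 CPM with siRNA1. SF3B1 of the same particle was the 1 that rose, from 348 to 449 CPM (0.37, adjusted p = 2.15e-06).

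Nucleotide synthesis genes were lower in 27 of 30 and higher in 1, with a median of -0.585, and 20 were lower and 5 higher than with siRNA1. PFAS, a step of purine synthesis, fell from 145, 157 and 144 to 52.3, 59.4 and 60.3 CPM (-1.37, SE 0.0675, adjusted p = 1.37e-14) and IMPDH2, the entry to guanine nucleotides, from 331, 356 and 373 to 168, 167 and 164 CPM (-1.09, SE 0.0567, adjusted p = 4.26e-14). Both were lower than with siRNA1 (-0.80 and -0.89), and PFAS overlaps CTC1 on the opposite strand. CAD, which starts pyrimidine synthesis, behaved otherwise: it was lower than control with siRNA2 (-0.53) and lower still with siRNA1 (-1.13), so that siRNA2 stood above siRNA1 (0.59, SE 0.0672, adjusted p = 3.39e-08).

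MYC itself fell moderately, from 120.4, 129 and 126 CPM in control to 87.6, 86.7 and 83 with siRNA2, with 119, 109 and 112 with siRNA1. The siRNA2 libraries were below all others, with -0.55 (SE 0.0615, adjusted p = 4.23e-08) against control and -0.40 (SE 0.0614, adjusted p = 4e-06) against siRNA1. Of the 30 genes listed for the MYC network and polyamine synthesis, 23 were lower and 3 higher than control, with a median of -0.52. Against siRNA1 19 were lower and 5 higher. SRM, the spermidine synthase, fell from 108, 115 and 123 to 57.8, 53.9 and 45.7 CPM (-1.13, SE 0.0873, adjusted p = 5.39e-11), while ODC1, the first step of polyamine synthesis, was not called (-0.07, adjusted p = 0.336). The 3 that rose were MAX, the dimer partner of MYC (0.22), and MXD1 and MXD4, which pair with MAX in the place of MYC. MXD1 was at 10.6, 8.26 and 8.93 CPM in control, 7.41, 7.97 and 7.03 with siRNA1 and 30.3, 27.6 and 29.6 with siRNA2 (1.65, SE 0.107, adjusted p = 2.13e-12 against control). MXD4 rose with both siRNAs, from 36.3 ± 1.93 CPM in control to 72.1 ± 1.08 with siRNA1 and 103 ± 11 with siRNA2.

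DNA replication genes were lower in 39 of 43 and higher in 0, with a median log2 fold change of -0.631. Much of this was seen with siRNA1 as well, whose median was -0.52: against siRNA1 20 were lower, 7 were higher and 16 were not called, with a median of -0.135. RPA1, the large subunit of the protein that coats single-stranded DNA, was at 289.9, 281 and 296 CPM in control, 253, 259.9 and 266 with siRNA1 and 66.3, 71.9 and 68.4 with siRNA2. This was the largest fall of the list, -2.07 (SE 0.0587, adjusted p = 5.68e-19) against control and -1.91 (SE 0.0585, adjusted p = 8.08e-19) against siRNA1. GMNN, or geminin, which restrains the licensing of origins, went from 65.1, 66.1 and 71.5 to 18.7, 20.1 and 21.3 CPM (-1.76, SE 0.0789, adjusted p = 2.6e-15) and was 81.4, 86.2 and 76.6 CPM with siRNA1. The 3 prime UTRs of RPA1 and GMNN hold the word GACCCTA, and RPA1 overlaps SMYD4 on the opposite strand. POLA1, the catalytic subunit of the polymerase that starts each strand, was graded over the groups, at 59.1, 52.6 and 55.9 CPM in control, 33.8, 37.1 and 34.4 with siRNA1 and 20.1, 19.4 and 19.1 with siRNA2 (-1.52, SE 0.0802, adjusted p = 5.3e-14 against control).

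The MCM helicase and the sliding clamp fell with both siRNAs. MCM2 was 332 ± 12.8 CPM in control, 265 ± 3 with siRNA1 and 195 ± 5.12 with siRNA2, and the siRNA2 libraries were lower than the siRNA1 libraries (-0.44, adjusted p = 1.31e-07). PCNA was 270.3 ± 16 CPM in control, 172 ± 3.35 with siRNA1 and 182 ± 5.04 with siRNA2, and no difference between the siRNAs was called (0.08, SE 0.0576, adjusted p = 0.231). TOP2A, which untangles replicated DNA, was 403, 173 and 329 CPM in the same order, lower with siRNA1 than with siRNA2 (0.92).

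Genes of G1/S and E2F control were lower in 23 of 30 and higher in 2, with a median of -0.50. The median with siRNA1 was -0.427, and between the siRNAs 13 were lower and 8 higher with siRNA2. E2F2, an activating E2F factor, was at 13.8, 15.6 and 14.4 CPM in control, 10.6, 10.3 and 10.4 with siRNA1 and 3.63, 4.16 and 5.71 with siRNA2 (-1.70, SE 0.139, adjusted p = 1.48e-10). E2F1 fell from 89.7, 101 and 106 to 53.2, 59.6 and 55.8 CPM and was 99.2, 90.7 and 103 with siRNA1, with the siRNA2 libraries below all 6 others (-0.82, SE 0.0739, adjusted p = 9.92e-10 against control and -0.80, SE 0.0737, adjusted p = 1.1e-09 against siRNA1). CCNE2 and CDK2, the cyclin and kinase of S phase entry, fell to 8.15 and 45.4 CPM from 18 and 98.4 CPM, with 9.59 and 54.7 CPM with siRNA1. CCND1, the cyclin that mitogens induce, was not called against control, at 1010 ± 21.7 CPM and 1064 ± 19.1 CPM (0.08, SE 0.0483, adjusted p = 0.191). The 2 that rose were CCND3 (0.45) and E2F7, a repressive E2F (0.20).

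Mitosis genes separated the siRNAs. Of 39 tested, 36 were lower than control and 1 higher, with a median of -0.517, and 36 were lower than with siRNA1 and 0 higher, with a median of -0.582. With siRNA1 the median against control was 0.023. MAD2L1, of the spindle checkpoint, was at 99.1, 91.7 and 103 CPM in control, 75.3, 88.8 and 81 with siRNA1 and 36.1, 42.8 and 41.8 with siRNA2 (-1.28, SE 0.0785, adjusted p = 8.06e-13 against control). CDC20, which activates the anaphase-promoting complex, was at 369.5, 398 and 418 CPM in control, 368, 342 and 392 with siRNA1 and 202, 222 and 220.2 with siRNA2 (-0.88, SE 0.0622, adjusted p = 1.13e-11). In both genes the siRNA2 libraries were below all 6 others. PLK1, a mitotic kinase, was 248 ± 19.5 CPM in control, 282 ± 18.9 with siRNA1 and 148 ± 10.9 with siRNA2. CDK1, the kinase of mitotic entry, rose with siRNA1 to 158 ± 13.3 CPM and fell with siRNA2 to 95.6 ± 7.32 CPM from 128 ± 9.09 CPM in control, a difference between the siRNAs of -0.72 (SE 0.0722, adjusted p = 3.95e-09). MKI67, the proliferation marker Ki-67, fell with both, to 603 ± 58.8 CPM with siRNA2 and 648 ± 93 with siRNA1 from 872 ± 139.7 CPM, and no difference between them was called (-0.11, SE 0.0944, adjusted p = 0.348). CDC25B, a phosphatase that activates CDK1, was the gene that rose against control (0.56), and it rose more with siRNA1 (0.90).

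**Figure D2:**
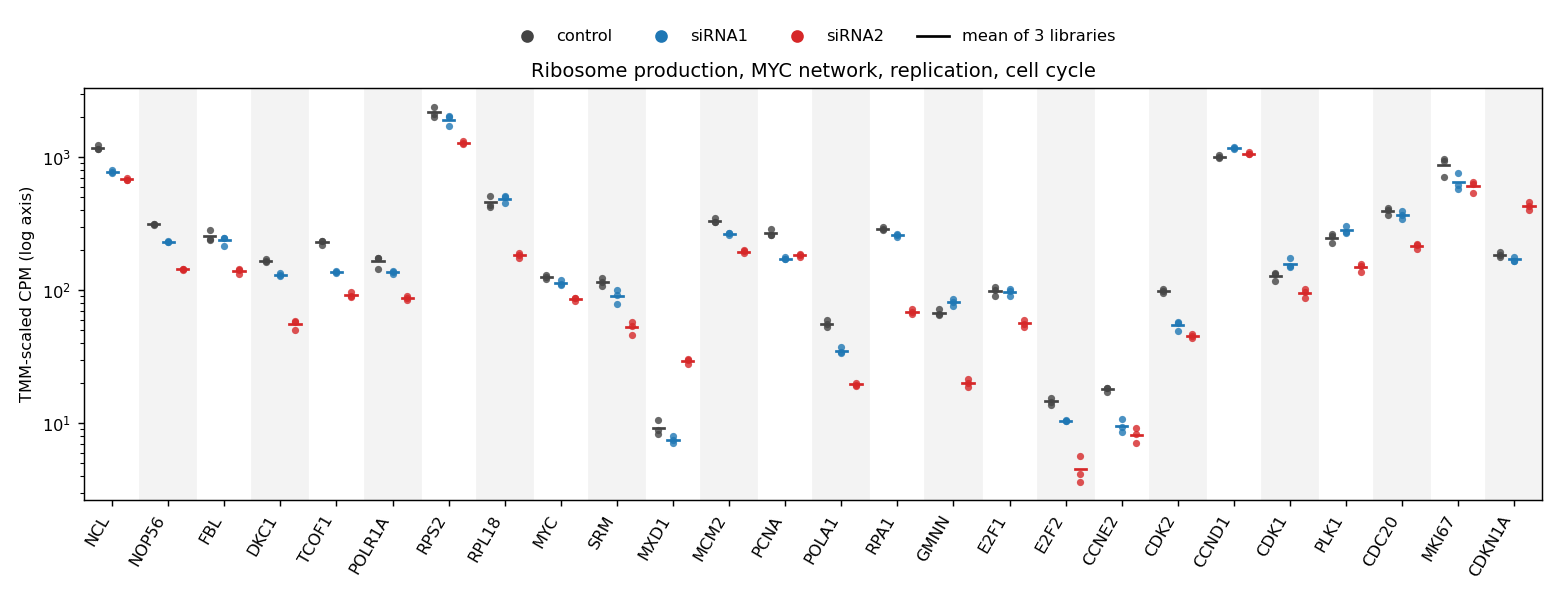
TMM-scaled CPM on a log axis for 26 genes of ribosome production, the MYC network, replication and the cell cycle; points are the 3 libraries of each group and bars their mean. The siRNA2 libraries of DKC1, RPA1, GMNN, E2F2, CDC20 and PLK1 lie below both other groups, while MXD1 and CDKN1A lie above them.

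CDKN1A, the p21 inhibitor of cyclin-dependent kinases, rose with siRNA2, from 185, 193 and 176 CPM to 457, 430.3 and 401 CPM, and was 179, 167 and 166 CPM with siRNA1. Its log2 fold change was 1.22 (SE 0.0601, adjusted p = 1.5e-14) against control and 1.33 (SE 0.0602, adjusted p = 1.33e-15) against siRNA1. Of 28 genes listed as p53 targets or CDK inhibitors, 17 were higher and 7 lower than control, with a median of 0.387, and 12 were higher and 8 lower than with siRNA1. Higher members included TP53INP1 (2.14 to 11.6 CPM), the death gene BBC3 (6.37 to 18.8 CPM) and CCNG2 (13.1 to 34.8 CPM). Lower members included CDKN2C (-0.69), GADD45A (-0.63), AEN (-0.43), BAX (-0.38) and MDM2, the p53 ubiquitin ligase (-0.32). The 3 prime UTR of BAX holds the word GACCCTA. CDKN1B, the p27 inhibitor, rose with both and more with siRNA1 (1.12 with siRNA2 and 1.66 with siRNA1).

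Cytokine and chemokine genes rose. Of 26 tested, 21 were higher than control and 1, LIF, lower, with a median log2 fold change of 1.656, against 27.2% higher over all genes. Against siRNA1, 17 were higher and 5 lower, with a median of 1.25, and with siRNA1 the median against control was 0.515. CCL20, which attracts cells bearing CCR6, had the largest rise among genes that reached 5 CPM and met the naming rule given with the processing. It was at 0.494, 0.396 and 0.117 CPM in control (8, 6 and 2 counts), 0.38, 0.618 and 0.462 with siRNA1 and 11.8, 8.88 and 9.32 with siRNA2 (222, 175 and 160 counts), with 4.89 (SE 0.281, adjusted p = 2.51e-13) against control. CXCL5, a neutrophil chemokine, went from 0.0617, 0.859 and 0.235 CPM in control to 6.78, 4.72 and 5.47 CPM (3.89, SE 0.378, adjusted p = 3.26e-09). The control counts of both genes are low, so their fold changes are less precise than those of IL6.

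IL6 (ENSG00000136244, chromosome 7, 22725884 to 22732002, plus strand), the cytokine that signals through STAT3, was at 30.9, 30.2 and 32.6 CPM in control, 32.4, 31.8 and 33.9 with siRNA1 and 305, 256 and 244 with siRNA2. Its siRNA2 libraries stood 8.6-fold above control (3.10, SE 0.0799, adjusted p = 2.51e-19) and above siRNA1 (3.04, SE 0.0791, adjusted p = 3.51e-20), while the change with siRNA1 was not called (0.06, SE 0.0842, adjusted p = 0.553). IL6 overlaps IL6-AS1 and STEAP1B on the opposite strand. IL24, a cytokine of the IL-10 family, was at 4.26, 4.75 and 4.35 CPM in control, 5.57, 4.94 and 3.54 with siRNA1 and 34.8, 28.2 and 31.8 with siRNA2 (2.83, SE 0.135, adjusted p = 7.92e-15), and it overlaps FCMR on the opposite strand. TNFSF15 rose with both siRNAs, from 1.15 ± 0.277 CPM to 2.99 ± 0.157 with siRNA1 and 14.1 ± 0.278 with siRNA2.

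The neutrophil chemokines of chromosome 4 rose together with the interleukin-1 genes. CXCL1 was 721 ± 36.5 CPM in control, 841 ± 24.5 with siRNA1 and 2068 ± 177 with siRNA2 (1.52, adjusted p = 2.2e-16). CXCL8 was at 127, 112 and 119 CPM in control, 168, 198 and 166 with siRNA1 and 493, 419.5 and 397 with siRNA2 (1.87, SE 0.0782, adjusted p = 7.45e-16 against control and 1.30 against siRNA1). CXCL2 and CXCL3 rose from 49.3 and 62.8 to 215 and 185 CPM, and with siRNA1 they were lower than control, at 35.5 and 19.8 CPM. IL1A was at 38.8, 32.5 and 34.2 CPM in control, 53.2, 53 and 48.7 with siRNA1 and 128, 114 and 114 with siRNA2 (1.75, SE 0.0775, adjusted p = 1.93e-15). IL1B was at 386, 346 and 344 CPM in control, 242, 234 and 224 with siRNA1 and 1099, 866 and 851 with siRNA2 (1.39, SE 0.0754, adjusted p = 8.86e-14 against control and 2.01 against siRNA1). CSF3, the granulocyte growth factor, moved in opposite directions, from 805 ± 30.6 CPM in control down to 222 ± 18.4 with siRNA1 and up to 2997 ± 394 with siRNA2 (3.75, SE 0.0792, adjusted p = 7.96e-22 between the siRNAs). Per length, by the deposited FPKM, CXCL1 at 1507 and CSF3 at 1339 stood above CXCL8 at 193, IL6 at 129 and CCL20 at 6.24 in the siRNA2 libraries.

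Other members did not follow. LTB and CX3CL1 rose with siRNA1 (3.17 and 4.24) and were not called with siRNA2 (-0.30 and 0.72), and TNF was low throughout, at 0.758 CPM in control and 0.91 CPM with siRNA2. LIF, a cytokine of the IL-6 family, was 147 ± 0.918 CPM in control and 128 ± 8.02 CPM with siRNA2 (-0.20, SE 0.0598, adjusted p = 0.00516). Among receptors, TNFRSF1B, the second TNF receptor, was at 16.8, 15.4 and 12.9 CPM in control, 21.1, 17.9 and 22.4 with siRNA1 and 133, 136 and 126 with siRNA2, a log2 fold change of 3.13 (SE 0.0924, adjusted p = 1.25e-18).

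Genes of the NF-kappa-B factors, their kinases and their feedback inhibitors rose in the majority. Of 27 tested, 21 were higher and 3 lower than control, with a median of 0.443, and 16 were higher and 2 lower than with siRNA1. The 3 lower were NFKB1, which encodes p50, REL and the inhibitor NFKBIB. NFKB1 was at 90.9, 92 and 92.2 CPM in control, 46.9, 44.7 and 42.6 with siRNA1 and 60.4, 54.2 and 57.1 with siRNA2 (-0.68, SE 0.0672, adjusted p = 4.51e-09 against control), a fall with both siRNAs and a larger one with siRNA1 (0.36 between them). RELA rose slightly (151 to 178 CPM, 0.23) and NFKB2, which encodes p52, more (174 to 336 CPM, 0.95). NFKBIA, the inhibitor that NF-kappa-B itself induces, was at 137, 126 and 139.5 CPM in control, 150.5, 144 and 150.2 with siRNA1 and 259.6, 249 and 252 with siRNA2 (0.92, SE 0.0581, adjusted p = 1.47e-12). BIRC3, an apoptosis inhibitor of TNF signalling, went from 61.9 ± 2.2 to 170.3 ± 3.66 CPM (1.46) and ZC3H12A, a nuclease that degrades cytokine RNAs, from 149 ± 7.36 to 412 ± 15.6 CPM (1.46). Both were below control with siRNA1, at 48.4 and 126 CPM.

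Effectors known to respond to NF-kappa-B or interleukin-1 rose in 21 of 26 and fell in 1, with a median of 0.975. Against siRNA1 23 were higher and 2 lower, with a median of 0.71, and with siRNA1 the median against control was -0.005. PTGS2, the inducible cyclooxygenase, was at 23, 15.7 and 14.8 CPM in control, 10.9, 10.3 and 9.75 with siRNA1 and 226, 154 and 151 with siRNA2, which is 3.31 (SE 0.14, adjusted p = 9.08e-16) against control and 4.10 (SE 0.149, adjusted p = 2.05e-17) against siRNA1. It was below control with siRNA1, and the siRNA2 libraries were far above both groups. ICAM1, an adhesion molecule, was at 97.2, 98.9 and 97.7 CPM in control, 109.5, 110.3 and 108 with siRNA1 and 213, 179 and 189 with siRNA2 (0.98, SE 0.0642, adjusted p = 2.63e-12). PLAU, the urokinase, rose from 291 to 869 CPM (1.58), with 425 CPM with siRNA1, and it overlaps C10orf55 on the opposite strand. SERPINB2, an inhibitor of PLAU, was the gene that fell, from 88.7, 77.6 and 78.2 to 34.4, 26.8 and 27.6 CPM (-1.46, SE 0.0916, adjusted p = 1.24e-12).

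**Figure D3:**
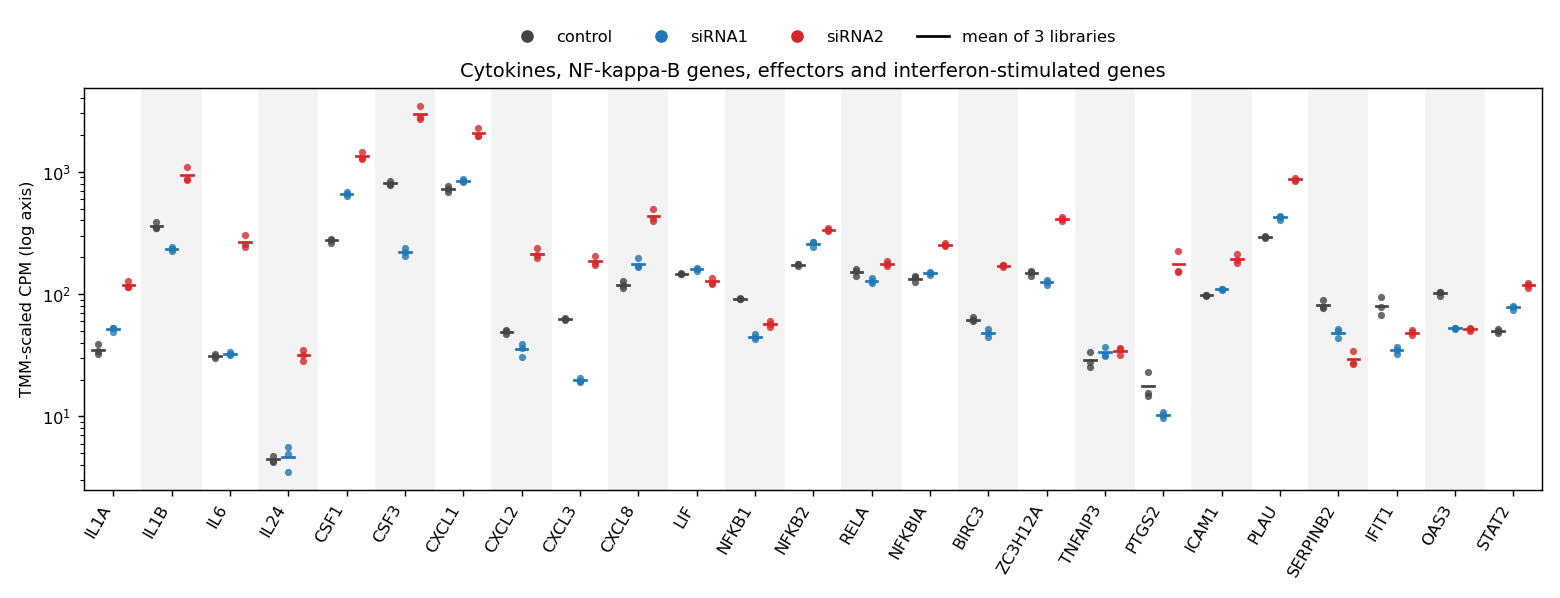
TMM-scaled CPM on a log axis for 25 cytokine, NF-kappa-B, effector and interferon-stimulated genes; points are the 3 libraries of each group and bars their mean. IL6, IL24, CSF3, CXCL2 and PTGS2 stand higher with siRNA2 than in both other groups, while NFKB1, SERPINB2, IFIT1 and OAS3 lie below control.

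Interferon-stimulated and RNA sensor genes were mixed against control. Of 43 tested, 22 were higher and 8 lower, with a median of 0.27, and 26 were higher and 7 lower than with siRNA1. IFIT1, which binds uncapped viral RNA, was at 68, 79 and 93.9 CPM in control, 32.6, 34.9 and 37.1 with siRNA1 and 46.1, 48.7 and 50.4 with siRNA2 (-0.73, SE 0.0895, adjusted p = 1.65e-07). OAS3, a sensor of double-stranded RNA, fell from 101 to 51.6 CPM, and ISG15 from 111 ± 12.2 to 96 ± 7.68 CPM (-0.21, SE 0.0801, adjusted p = 0.0259). STAT2, part of the factor that type I interferon activates, rose (1.24). SAMD9L (13.9 to 36 CPM) and IFI6 (6.76 to 18.1 CPM) were among those that rose. IFIT1 overlaps LIPA on the opposite strand. Antigen presentation by class I was higher in 19 of 21 and lower in 1, with a median of 0.369, but against siRNA1 9 were higher and 4 lower, with a median of 0.123.

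Among markers of myeloid cells, CD14 and CSF1R rose with siRNA2, and others were low in both groups. Unscaled means in control and siRNA2 libraries were 0.352 and 0.851 CPM for CD68 and 0.0642 and 0.161 CPM for ITGAM. They were 0.15 and 0.0778 CPM for LYZ and 0.19 and 0.215 CPM for FCER1G. CD14 was at 1.73, 1.85 and 2.76 CPM in control and 8.49, 8.17 and 8.79 CPM with siRNA2 (1.99) and CSF1R at 4.51, 3.5 and 3.76 and 11.1, 10.5 and 10.5 CPM (1.44), while PTPRC, carried by all leukocytes, had 0 counts in these libraries. Summed over the 14 leukocyte markers, levels were 8.33 to 8.9 CPM in control libraries and 21.0 to 22.5 CPM with siRNA2 (unscaled), 7 markers were at 0 in all 6 libraries, and of the 4 with enough counts 3 were higher and 0 lower. The part of any such cells in the cytokine levels was not tested.

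The word of the NF-kappa-B site was looked for in the promoters. In windows of 300 bases, from 250 before to 50 after the RefSeq start on GRCh38.p14, GGNNTTTCC on either strand was found in 6.263% of 27305 promoters, in 6.713% of those of tested genes, and in 10 of 19 cytokine genes (52.632%) and 10 of 24 NF-kappa-B genes (41.667%) with a window. The effectors of NF-kappa-B or interleukin-1 held it in 3 of 18 windows (16.667%). The share was the same for replication genes, 6 of 36 (16.667%), and higher for cholesterol synthesis, 4 of 17 (23.529%). Of the 10 cytokine genes with a match, 7 that were higher than control are shown with the match in capitals, so that its sequence and place before the start can be compared. IL32, which was higher (2.44), and LTB and CXCL11, which were not called, also hold a match and are not printed:
CXCL1: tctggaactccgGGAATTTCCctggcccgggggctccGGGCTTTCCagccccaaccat
CXCL2: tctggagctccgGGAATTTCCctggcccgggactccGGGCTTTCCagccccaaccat
CXCL3: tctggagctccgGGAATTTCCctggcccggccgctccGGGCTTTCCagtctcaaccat
CXCL5: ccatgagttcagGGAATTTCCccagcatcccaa
CXCL8: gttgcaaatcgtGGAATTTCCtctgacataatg
IL6: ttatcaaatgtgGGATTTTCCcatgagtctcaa
CCL20: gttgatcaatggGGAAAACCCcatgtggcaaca
In CCL20 the match is on the other strand. The first base shown lies between -103 and -84 from the start in these 7 genes. CXCL1 is at chr4:73869303-73869360 (plus), CXCL2 at chr4:74099228-74099284 (minus), CXCL3 at chr4:74038722-74038779 (minus), CXCL5 at chr4:73998747-73998779 (minus), CXCL8 at chr4:73740466-73740498 (plus), IL6 at chr7:22727116-22727148 (plus) and CCL20 at chr2:227813751-227813783 (plus). CXCL1, CXCL2 and CXCL3, neighbours on the chromosome, share a pair of matches. Over all tested genes with a window, 31.5% of those with a match and 28.6% of those without were higher with siRNA2, and among cytokine genes 8 of 10 with and 8 of 9 without were higher. In the list of NF-kappa-B factors and inhibitors these were 8 of 10 and 10 of 14.

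Cholesterol synthesis rose as a pathway. Of 22 tested enzymes and partners, 20 were higher than control and 1 lower, with a median log2 fold change of 0.913, against 27.2% higher over all genes. Against siRNA1 19 were higher and 1 lower, with a median of 1.121, and with siRNA1 the median against control was -0.159. HMGCS1, the synthase at the entry of the mevalonate pathway, was at 70.9, 61.5 and 63.2 CPM in control, 76.2, 83.3 and 71.6 with siRNA1 and 408, 385 and 394 with siRNA2. It was 6.06-fold above control (2.60, SE 0.0685, adjusted p = 2.51e-19) and above siRNA1 (2.36, SE 0.0673, adjusted p = 2.26e-19).

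Later steps rose as well. MVK, the mevalonate kinase, went from 33.6 ± 0.874 to 95.4 ± 5.1 CPM (1.50), SQLE, the epoxidase that commits squalene to sterols, was at 33, 31.3 and 31.4 CPM in control, 27.4, 30.1 and 26.5 with siRNA1 and 91.2, 81.9 and 85.7 with siRNA2 (1.43, SE 0.0749, adjusted p = 4.29e-14), and LSS, which closes the rings, went from 149 ± 4.05 to 356 ± 19.3 CPM (1.26). The demethylation steps had CYP51A1 from 12.3 ± 1.27 to 37.7 ± 1.45 CPM (1.61) and MSMO1 at 31.7, 27.4 and 31.6 CPM in control, 38.4, 43.8 and 37.6 with siRNA1 and 156, 148 and 161 with siRNA2 (2.35, SE 0.0773, adjusted p = 7.49e-18). In the genes of these steps the siRNA2 libraries were above all 6 others. Smaller rises were seen for IDI1 (0.22), FDFT1 (0.33) and FDPS (0.49). PMVK, the kinase after MVK, was the 1 gene lower (-0.24, SE 0.0872, adjusted p = 0.0228).

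Among genes that sense and take up sterol, 15 of 23 were higher and 3 lower, with a median of 0.387, and 14 were higher and 6 lower than with siRNA1. INSIG1, which holds SREBP in the endoplasmic reticulum and is itself an SREBP target, was at 54.5, 55.3 and 58.9 CPM in control, 50.3, 54.8 and 42.9 with siRNA1 and 334, 311 and 308 with siRNA2 (2.50, SE 0.0744, adjusted p = 1.31e-18 against control and 2.69, SE 0.0749, adjusted p = 1.38e-19 against siRNA1). STARD4, a carrier of cholesterol, was at 50.8, 46.9 and 50.9 CPM in control, 23.1, 28.4 and 23.3 with siRNA1 and 106, 111 and 111 with siRNA2 (1.14, SE 0.075, adjusted p = 2.94e-12), below control with siRNA1 and above it with siRNA2. SREBF2, the SREBP that drives these genes, rose from 194 ± 11.4 to 272 ± 0.841 CPM (0.49, SE 0.0565, adjusted p = 5.93e-08), SREBF1 was not called (-0.11, adjusted p = 0.253), and its escort SCAP fell (-0.46, SE 0.0703, adjusted p = 5.04e-06).

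The HDL receptor SCARB1 (-0.83) and MYLIP, a ubiquitin ligase (-0.50), were the others that fell with SCAP. Genes of LXR, which answers high sterol, were higher in 9 of 13 and lower in 1, with a median of 0.637. With siRNA1 their median against control was 0.52, and between the siRNAs 7 were higher and 4 lower with siRNA2, with a median of 0.267. Their exporter ABCA1 was low and not called against control (0.839 and 0.814 CPM).

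**Figure D4:**
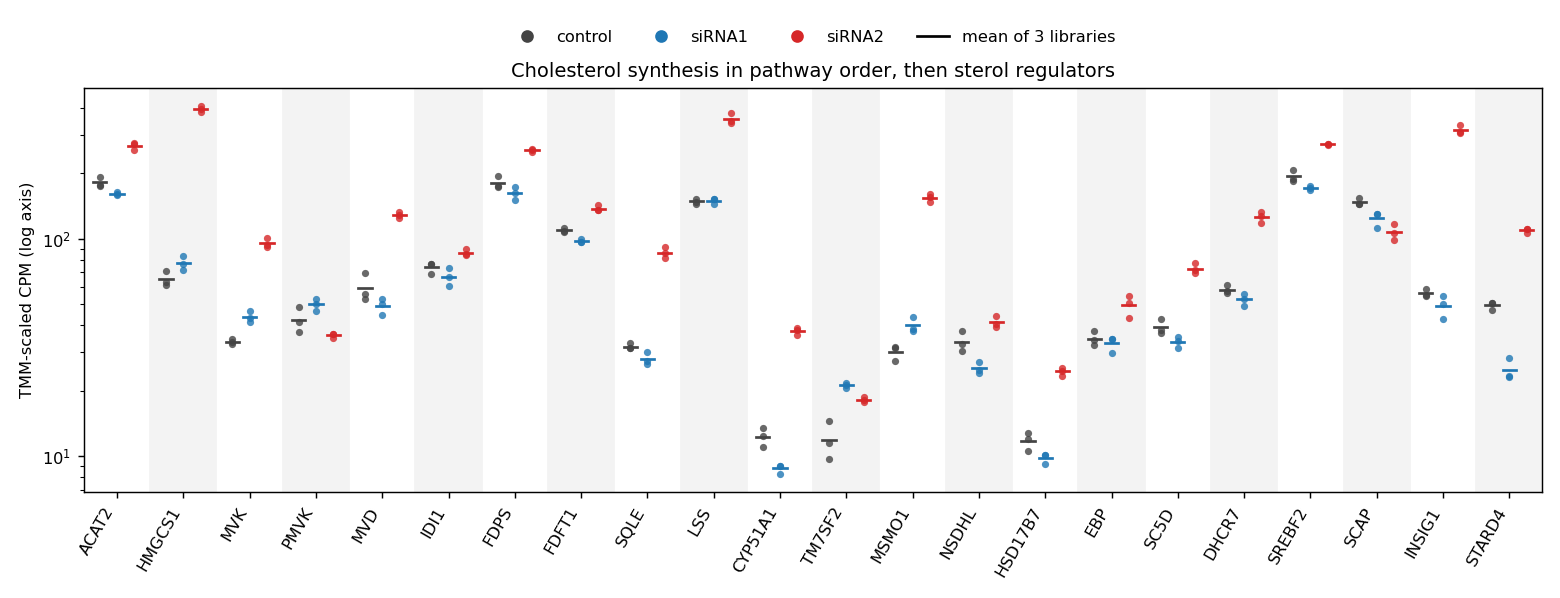
TMM-scaled CPM on a log axis for 18 cholesterol synthesis genes in pathway order and 4 genes of sterol sensing and transport; points are the 3 libraries of each group and bars their mean. The siRNA2 libraries stand above both other groups from HMGCS1 to DHCR7 except at PMVK and TM7SF2.

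Fatty acid genes rose less. Of 24 tested, 15 were higher and 3 lower than control, with a median of 0.325, and 16 were higher and 2 lower than with siRNA1, where the median with siRNA1 against control was -0.24. FASN, the fatty acid synthase, went from 619 ± 57.3 to 770.3 ± 19.1 CPM (0.32), and SCD, the desaturase, was not called (0.12, adjusted p = 0.115). The difference from siRNA1 was largest for FADS1, another desaturase, which was 315 ± 22.6 CPM in control, 36 ± 0.992 with siRNA1 and 440.1 ± 12.8 with siRNA2 (3.61), and here the change with siRNA1 (-3.13) was larger than that with siRNA2 (0.48).

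The window of SREBF2 holds the sterol element word TCACNCCAC, found on either strand in 1.146% of all windows, in 0 of 17 cholesterol synthesis genes and in 1 of 17 sterol sensing genes with a window. Of all tested genes with a window, 39.1% of the 128 with the word and 28.6% of the 10984 without were higher with siRNA2. The SREBF2 stretch at chr22:41832960-41832992 (plus) begins 145 bases before the start:
SREBF2: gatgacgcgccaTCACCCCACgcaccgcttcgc
The E2F words TTTGGCGC or TTTCCCGC, on either strand, were in 2.311% of all windows and in 3.672% of those of tested genes. They were in 13 of 36 replication genes (36.111%) and 9 of 25 genes of G1/S (36.0%). Stretches of 4 genes that fell are given with the match in capitals, a match on the other strand reading GCGCCAAA or GCGGGAAA:
E2F1: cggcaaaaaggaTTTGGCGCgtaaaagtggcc
MCM6: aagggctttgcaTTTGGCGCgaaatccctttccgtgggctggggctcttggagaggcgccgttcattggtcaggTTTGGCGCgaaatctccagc
PCNA: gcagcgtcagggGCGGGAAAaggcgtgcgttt
POLA1: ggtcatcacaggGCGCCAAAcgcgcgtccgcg
They lie at chr20:33686386-33686417 (minus), chr2:135876514-135876607 (minus), chr20:5126662-5126693 (minus) and chrX:24693769-24693800 (plus). Of all tested genes with a window, 43.6% of the 408 with an E2F word were lower with siRNA2, against 30.2% of the 10704 without. In the replication list 13 of 13 genes with the word and 20 of 23 without were lower, and in the list of G1/S genes 6 of 9 with and 13 of 16 without.

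Chaperones of the endoplasmic reticulum, where sterol sensing also takes place, were higher in 23 of 29 and lower in 3, with a median of 0.408, and 23 were higher and 1 lower than with siRNA1. HSPA5, the chaperone BiP, went from 806 ± 5.77 CPM in control to 1118 ± 17.1 with siRNA1 and 1832 ± 128 with siRNA2 (1.18), and DNAJB9, its partner, from 9.14 ± 0.591 to 15.5 ± 1.53 and 34.5 ± 2.67 CPM (1.91). EIF2AK3 and ERN1, sensor kinases of misfolded protein, were lower (-0.71 and -0.46). ATF4 fell slightly (-0.19, SE 0.0574, adjusted p = 0.00655) and its listed targets were split, 14 higher and 8 lower of 26. Lysosome and autophagy genes were higher in 28 of 34 and lower in 2, with a median of 0.448, and 21 were higher and 6 lower than with siRNA1. ULK1, the kinase that starts autophagy, rose from 27.1 to 94.1 CPM, and GABARAPL1, which marks the autophagosome, from 13.9 to 62.8 CPM, with 45.2 and 34.3 CPM with siRNA1. Antioxidant targets of NRF2 were higher in 20 of 30 and lower in 2, while against siRNA1 11 were higher and 9 lower.

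Hypoxia and glycolysis genes had no common direction, with 14 of 34 higher and 14 lower and a median of -0.049. VEGFA, the vascular growth factor, fell from 248 to 98.2 CPM (-1.34). Mesenchymal genes were higher in 20 of 28 and lower in 5, with a median of 0.522. MMP14, a membrane protease, fell with siRNA1 and rose with siRNA2, at 825 ± 17.8 CPM in control, 193 ± 10.5 with siRNA1 and 1713 ± 172 with siRNA2, while AXL, a receptor kinase of mesenchymal cells, fell with both, to 103 ± 3.92 and 273 ± 11.3 CPM from 1004 ± 34.7 CPM. Summed over 11 fibroblast markers, levels were 14.1 to 17.2 CPM in control and 74.6 to 77.2 CPM with siRNA2 (unscaled), POSTN was at 0 throughout, and most of the sum was COL1A1. Fibrillar collagens rose, with COL1A1 at 7.29, 9.64 and 7.82 CPM in control and 62, 63 and 58.8 with siRNA2 (2.90), and at 45 ± 3.99 CPM with siRNA1. COL1A2 had 0 counts in the control libraries and 35, 44 and 36 with siRNA2, at least 11.1-fold higher when 3 counts per control library are taken as the floor, which covers counting error only.

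The largest falls besides MILIP were in genes with no common role in the lists. PCBD1, a cofactor recycling enzyme, was at 21.9, 24.3 and 25.9 CPM in control, 23.9, 19.9 and 20.9 with siRNA1 and 2.19, 1.93 and 2.68 with siRNA2 (-3.41, SE 0.139, adjusted p = 4.61e-16). TMEM250 was at 132, 152 and 157 CPM in control, 263, 237 and 271 with siRNA1 and 20.6, 19.8 and 18.2 with siRNA2 (-2.91, SE 0.0804, adjusted p = 4.11e-19). MBD2, which binds methylated DNA, fell from 32 ± 0.844 to 4.51 ± 0.718 CPM (-2.82) and ADIPOR2, an adiponectin receptor, from 119 ± 0.692 to 21.2 ± 1.08 CPM (-2.49). The siRNA2 libraries of these 4 genes lay below all 6 others. HIF1A-AS3 (-3.05), PTER (-2.58), CHRDL1 (-2.98), SLC7A2 (-2.57) and GJA1 (-2.48) completed the 10 largest among genes of at least 5 CPM that met the naming rule. FERMT1 (-2.44) and VTA1 (-2.38) were further genes far below both control and siRNA1. HIF1A-AS3 overlaps HIF1A, and PTER overlaps C1QL3, on the opposite strand. Of the largest rises, ATOH8 (3.58) and SYT12 (3.04) rose with siRNA1 as well, and no difference between the siRNAs was called (0.09 and -0.12), while DRAXIN (3.28) and PAPPA (2.61), a protease of growth factor binding proteins, were also above siRNA1 (2.73 and 3.56). Besides the pairs given above, AXL, CCND1, CCNE2, CDK2, CSF1R, DHCR7, FADS1, FDPS, GARS1, IDI1, LIF, LSS, MAX, MDM2, MVK, NFKBIB, NOP14, POLA1, POLR1C, RELA, RRN3, SREBF1, SREBF2, STARD4, TM7SF2, TP53INP1 and VIM overlap a tested gene on the opposite strand and CDKN1B, MXD1 and TM7SF2 one on the same strand, so their reads may be shared.

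Several of the genes with the largest falls hold the same 7-base word in their 3 prime UTR. Of 12886 words of 7 bases present in at least 300 of 12582 annotated 3 prime UTRs, GACCCTA had the lowest mean log2 fold change relative to UTRs without it. It was chosen on these same values, so its presence among the largest falls and the difference below are descriptions. MILIP holds GACCCTA, as it does 10.779% of the words, but not the words ranked 2 to 6. PTER, FERMT1, CHRDL1, SLC7A2 and GJA1 do not hold GACCCTA, and HIF1A-AS3 has no annotated 3 prime UTR. The sites are printed with the word in capitals because 5 of the 8 genes with the largest falls against both groups carry GACCCTA:
MILIP: ggtaacatagaGACCCTAtcgctacaaga
PCBD1: ttagaaaccagGACCCTAaaccccacact
TMEM250: gtgggacttgtGACCCTAccctgtcaggc
MBD2: atatcaagcagGACCCTAagatgaagctg
ADIPOR2: ccagggactatGACCCTAaaccagggcct
VTA1: gatgttagcaaGACCCTAaaaatgtccat
The MILIP site is at chr17:81930473-81930501 (plus), in an exon of the noncoding RNA, and the others are at chr10:70883566-70883594 (minus), chr9:136115081-136115109 (minus), chr18:54155065-54155093 (minus), chr12:1786086-1786114 (plus) and chr6:142218866-142218894 (plus), all in GRCh38. MBD2 and ADIPOR2 have 2 such sites in the UTR read. The run of bases shared with the MILIP site was 7, the word alone, in PCBD1, TMEM250, MBD2 and ADIPOR2, and 8 in VTA1.

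The word was in the UTR of 665 genes (5.285%). Their mean log2 fold change was -0.381 against 0.045 in genes without it, and their median -0.3226 against 0.0136. With siRNA1 the medians were -0.0784 and 0.0072. Of genes at least 2-fold lower with siRNA2, 21.47% held the word, and of those at least 2-fold higher 2.987%. UTRs with the word were longer, with a median of 3061 against 1280 bases, and were not matched for length. The sequence of siRNA2 was not used here, and whether the word has a part in these falls was not tested. Without the genes that hold it, 46 of 48 ribosome biogenesis genes and 69 of 69 ribosomal protein genes were lower than control. So were 35 of 38 mitosis genes and 35 of 39 replication genes. These list counts keep genes with no annotated UTR. On that basis, 4076 of the 14680 tested genes not found to hold the word were lower and 4062 higher. Over the 11917 other genes with a UTR 30.04% were lower and 31.13% higher. Whether falls in genes without the word follow from falls in genes with it was not tested. Genes that hold only a related word, such as ACCCTAA, were not taken out of these counts.

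**Figure D5:**
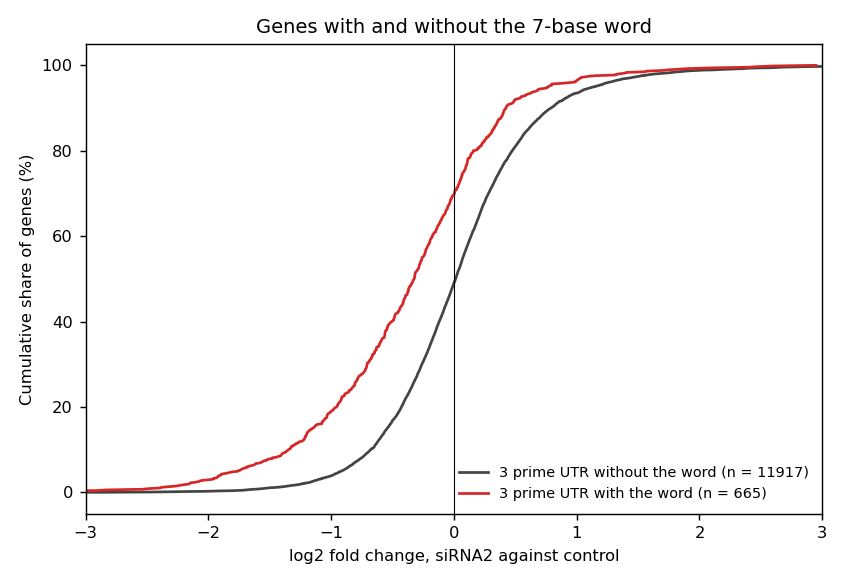
Cumulative share of genes by log2 fold change of siRNA2 against control, for genes whose 3 prime UTR holds the word GACCCTA (red) and for those without it (grey). The red curve lies to the left, with medians of -0.3226 and 0.0136; the word was chosen on these fold changes.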

How the data were processed

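RNA-seq of 9 MDA-MB-231 libraries was analysed from the deposited table of gene counts, in which the authors give a read count per gene and library; the tools named per the submitters' processing notes are Trimmomatic 0.30, HISAT2 2.0.1, HTSeq 0.6.1 and DESeq, with no role given. The deposited FPKM values were made by the authors from these counts, since dividing counts by exonic size and library total returned 100% of them. The notes name hg19, whereas the positions in the table match GRCh38. The sources used here do not say whether counting used strand.

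Libraries were grouped by their treatment labels. The filter was filterByExpr of edgeR (minimum count 10, minimum total 15), which left out 45267 genes and kept 99.87% of counts, scaled by TMM and tested in 1 fit of 3 groups with edgeR 4.0.16 (R 4.3.3, limma 3.58.1), two-sided, at an adjusted p below 0.05. Alternatives were DESeq2 1.42.0, median-of-ratios scaling, other filters, limma on log2 FPKM, 2 groups, a replicate block and each library left out. Pairs of libraries within a group were compared and none was a duplicate.

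The members and the gene lists were chosen with earlier results of these data known, and lists are described by counts and medians with no test. Named genes are MILIP, the 10 largest changes in each direction with siRNA2 at a mean of at least 5 CPM, the 8 in each direction largest against both other groups, the 4 largest per list and direction, and a fixed set. Genes with clone, accession or microRNA names were left out of the 10 and the 8. For the 10, all siRNA2 libraries had to lie on the same side of all control libraries. For the 8, this held for the siRNA1 libraries too. Other list members named in the text were chosen after their values were seen. Of the 212 genes the rule gives, 54 overlap a tested gene on the opposite strand and 9 on the same strand, and not all 212 are reported here. Symbols were taken from a table of gene names, which held 60401 of the 60612 identifiers. Promoter windows are from RefSeq on GRCh38.p14, and 3 prime UTRs from GENCODE release 29 on GRCh38. Python 3.11.15 with pandas 2.3.3 and matplotlib 3.10.9 served for tables and figures.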

Additional observations from a re-analysis of the deposited data

How the results depend on the processing

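Against control, the count of higher genes was 3379 to 4417 and that of lower genes 3605 to 4435 over all alternatives run, each within 1.5 times of the values given above, and leaving out 1 library at a time gave 3807 to 4182 higher and 4026 to 4292 lower. MILIP stayed lower than control in each of them. Of the 210 genes that the rule names and that were called, at most 5 lost the call under any alternative and 0 changed direction, wherever they were tested. Settings with an FPKM filter tested fewer of them: at a mean FPKM of at least 1, 189 kept the call and 1 lost it. All 16 that were largest against both groups kept their calls against siRNA1 wherever they were tested. Library numbers are shared between groups, but libraries with the same number did not deviate together (correlations -0.015, 0.001 and -0.041 between control and siRNA2), so the number was not used; with it as a replicate block, 4171 genes were higher and 4431 lower against control, and 4385 higher and 4909 lower against siRNA1. The depth of 15281220 to 19759371 counts limits genes near the filter, such as CCL20 and CXCL5 in control libraries.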
